A study of Mus musculus with 2 samples.

Results

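The genes described here encode the machinery that assembles antigen receptor genes: Rag1, Rag2, Dntt, Xrcc5, Xrcc6, Xrcc4, Prkdc, Lig4, Dclre1c and Hmgb2. They are a list of names that uses no measured value, though it was drawn up with earlier results of these data known, and all 10 are on the array, out of 27591 genes named there. They have 21 probes of 41174 and 48 spots of 43379 that are not controls. RNA came from DP (CD4+ CD8+ double positive) thymocytes. Each of 2 arrays set 1 sample of genotype Bcl11bF/FCD4Cre/Tcra-/- against 1 of genotype TCRa-/-. Neither group has Tcra, so both hold thymocytes from before positive selection, and the question was what the transcription factor Bcl11b does at that stage. In the first group a Cre driven by Cd4 sequences acts on floxed Bcl11b. The control label names neither a Cre nor a floxed allele, so an effect of Cre itself cannot be told apart from the loss of Bcl11b. The labels say that the mice were not treated, and give no age, no number of mice per sample and no method of selecting DP cells. They call the arrays biological replicates. The p-values here measure no spread beyond that between 2 arrays, and limma draws it towards the spread common to all genes. Each SE given is this moderated one, so it can be smaller or larger than the SE of the 2 values alone. Cy5 always marked the deficient RNA and Cy3 the control RNA, so dye and genotype cannot be told apart either. Both arrays lie on 1 slide.

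V(D)J recombination joins gene segments into a receptor gene. RAG1 and RAG2 form the recombinase that cuts at recombination signal sequences, and HMGB proteins bend the DNA for them. Ku70 (Xrcc6) and Ku80 (Xrcc5) bind the broken ends and recruit DNA-PKcs (Prkdc), which activates the nuclease Artemis (Dclre1c) to open hairpin ends. Terminal transferase (Dntt) adds bases without a template, and XRCC4 with DNA ligase IV (Lig4) closes the joint. DP thymocytes are known for expressing Rag1 and Rag2 while they rearrange Tcra, and signals of positive selection end that expression.

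The recombinase genes and the genes for opening and closing ends were lower in the Bcl11b-deficient samples, while Xrcc6, Hmgb2 and 1 of 3 Dntt probes were higher. Rag1 alone changed direction, with median centring in place of loess. Among the 10 genes, 4 were higher and 6 lower on both arrays, by the brightest usable probe of each gene, where 36.4% of the 14921 genes tested were higher and 38.5% lower on both. Only Dntt was at least 2-fold higher on both arrays, as were 0.818% of genes, and no member was 2-fold lower on both, as were 0.275%. That Dntt probe was among the brightest on the array, where ratios were raised. The 69 genes within 0.5 log2 units of its intensity had a median log2 ratio of 1.07, and 85.5% of them lay below Dntt. The median log2 ratio of the members, deficient over control, was -0.23 against -0.00 for all genes tested. No member passed limma's test of the mean of 2 arrays, with adjusted p between 0.0651 (Dntt) and 0.432 (Xrcc5), and 0.0% of genes passed in either direction. At an unadjusted p under 0.05, where 15.1% of genes were called higher and 14.1% lower, the members called were 3 higher (Dntt, Xrcc6, Hmgb2) and 5 lower (Rag1, Rag2, Xrcc4, Lig4, Dclre1c), together 8 of 10 where 29.2% of genes were called. Values given as loess are log2 ratios after normexp background correction and loess within each array, and processed signals are the scanner software's own background-corrected and dye-normalised intensities. The members' median was -0.39 from the processed signals. It was 0.13 when each array was only centred on its median, a scaling that also put the median of all genes at 0.13.

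Calls of the members differed between ways of processing. With median centring, 3 members (Dntt, Xrcc6, Hmgb2) passed limma's test as higher and 0 as lower, where 5.88% of all genes passed as higher and 0.704% as lower. The same 3 passed as higher, and 0 as lower, when normexp was fitted against the negative control spots, where 4.14% and 3.14% of genes passed. With limma's separate-channel fit, in which the channels of each array are modelled apart, those 3 passed as higher and Rag2 and Lig4 as lower, where 4.74% and 3.81% of genes passed. With the processed signals 0 members passed, where 0.496% of genes passed as higher and 0.389% as lower, and with the values in the authors' deposited table, again 0 members passed, where 0.469% and 0.362% did. In direction, 3 members were higher and 6 lower on both arrays by processed signals, where 33.5% and 41.1% of genes were. Of the 19 usable probes of the members, 5 were higher and 13 lower on both arrays after loess, where 36.6% and 36.9% of all usable probes were, and median centring made this 9 and 8.

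**Figure D1:**
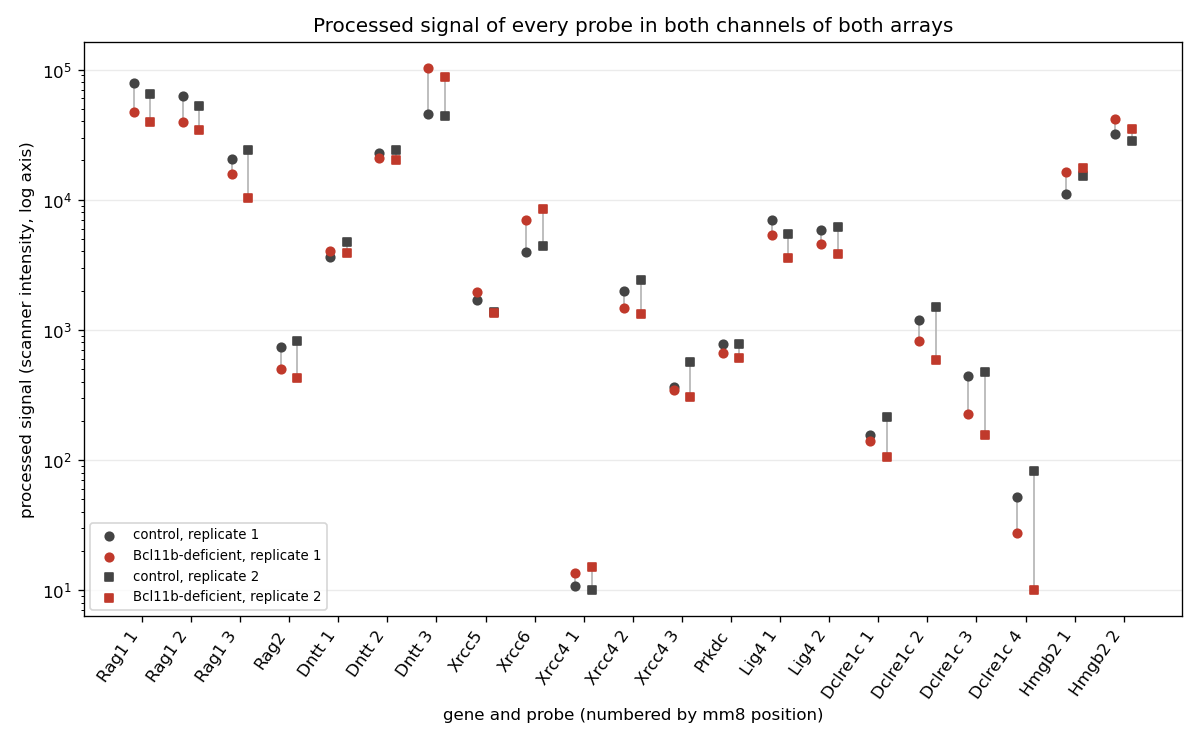
Processed signal of all 21 probes, in scanner intensity on a log axis, with 1 point for each genotype on each array and a grey line joining the 2 channels of an array. Rag1, Rag2, Lig4 and Prkdc lie lower in the deficient channel at every probe, Xrcc6 and Hmgb2 lie higher, and of the 3 Dntt probes only the third lies well above its control.

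On replicates 1 and 2, the share of spots well above background was 56.5% and 50.5% for the deficient RNA, and 51.7% and 50.6% for the control RNA. None of the members' spots was saturated. The targeted gene was lower at both of its probes, with log2 ratios of -1.40 and -0.28 at one and -1.37 and -2.16 at the other, and whether they lie in the deleted part is not given in the sources used here. All 8 markers of DP thymocytes (among them Cd4, Cd8a, Cd8b1, Ptcra, Cd1d1 and, from the members, Rag1 and Rag2) were well above background in both channels on both arrays. In bulk RNA, fewer cells of a type and less RNA per cell cannot be told apart.

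The stretches of 250 bases before the annotated starts of Rag1, Rag2 and Dntt show what lies beside the genes on which the results turn. They are from RefSeq (build GRCm38.p6), at chr2:101649533-101649782 on the minus strand, chr2:101624462-101624711 on the plus strand and chr19:41029025-41029274 on the plus strand. Rag1 and Rag2 lie beside each other on chromosome 2 and are transcribed towards each other. Capitals mark matches on either strand. The E box, which the E proteins of T cell development read, was searched as CANNTG with any base at N. The core that ETS family factors read was searched as GGAAG, without its flanking letters. For Runx factors, which also act in thymocytes, the core searched was TGTGGT and no longer form. For GATA factors the letters searched were AGATAA.
Rag1: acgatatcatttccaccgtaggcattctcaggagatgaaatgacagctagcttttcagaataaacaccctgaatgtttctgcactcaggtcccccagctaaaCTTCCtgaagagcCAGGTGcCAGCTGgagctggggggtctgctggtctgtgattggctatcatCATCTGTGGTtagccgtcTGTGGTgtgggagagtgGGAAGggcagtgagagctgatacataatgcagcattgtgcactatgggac
Rag2: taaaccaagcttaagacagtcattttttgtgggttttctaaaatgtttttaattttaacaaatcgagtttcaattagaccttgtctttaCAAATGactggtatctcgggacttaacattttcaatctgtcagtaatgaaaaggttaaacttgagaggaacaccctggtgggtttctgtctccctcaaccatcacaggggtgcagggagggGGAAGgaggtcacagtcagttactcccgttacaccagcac
Dntt: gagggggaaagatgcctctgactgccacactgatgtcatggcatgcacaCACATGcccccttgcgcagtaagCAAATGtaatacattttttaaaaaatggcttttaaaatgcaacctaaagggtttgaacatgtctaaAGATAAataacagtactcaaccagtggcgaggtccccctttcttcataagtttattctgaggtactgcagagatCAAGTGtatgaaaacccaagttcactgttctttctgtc
The Rag1 stretch holds 3 E boxes, 2 ETS and 2 Runx matches, and the E box nearest its start shares letters with a Runx match. The Rag2 stretch holds 1 E box and 1 ETS match, and the Dntt stretch 3 E boxes and 1 GATA match. Of 32851 promoter stretches of the same length, 66.2% hold the E box letters, 64.1% the ETS letters, 14% the Runx letters and 9.99% the GATA letters. TGACCA, a core read by Bcl11 family proteins, is in 11.4% of them and in none of these 3. Of the 10 members, 9 have a promoter in the table, and among those only Dclre1c has TGACCA, starting 178 bases before its start. Such matches describe letters and show no binding.

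Rag1 carries the active site of the recombinase and has 3 probes on mouse chromosome 2 (build mm8, minus strand). At the probe at 101439495-101439554 the processed signals of the deficient samples (replicate 1, then 2, as throughout) were 46863 and 39640, against 79061 and 65262 in the control samples. The probe at 101439660-101439720, which was spotted 10 times, gave 39213 and 34276 against 62431 and 52812. The probe nearer the gene's start, at 101445359-101445418, gave 15785 and 10287 against 20475 and 24206. All 3 probes were thus lower in the deficient channel on both arrays, at 60.0%, 64.1% and 57.2% of control. The first 2 probes hardly differed between arrays, at 59.3% and 60.7% for the first and 63.1% and 65.1% for the second, whereas the third stood at 77.1% and 42.5%. After loess the ratios were smaller at the first 2 probes. The first, which represents the gene, had log2 ratios of -0.23 and -0.32, a mean of -0.27 ± 0.07 (SE, n = 2) and adjusted p = 0.131 in limma. The third had -0.31 and -1.16. Over the 10 spots of the second probe the loess ratios ranged from -0.44 to -0.12 on replicate 1 and from -0.49 to -0.12 on replicate 2, so every spot was below 0.

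The size of the Rag1 value, and under one scaling its direction, depend on how bright probes are normalised. Its mean log2 intensity was 17.27, and the 111 genes within 0.5 above and below it had a median loess ratio of 0.82, with 0.90% of them below Rag1. With a running median over 201 probes of like intensity taken away in place of loess, Rag1 stood at -0.79. With median centring alone, which leaves the rise of bright genes in place, it stood at 0.46 with adjusted p = 0.0655 in limma. The processed signals gave -0.74 ± 0.11 (SE, n = 2) and adjusted p = 0.0650 in limma. Rag1 was lower in 11 of the 12 settings run, median centring being the exception. These are not 12 separate checks. Settings that changed only the filter, the fit of single probes or the model returned the main value of -0.27. The deposited table repeated the processed signals at -0.74, and leaving out an array gives the value of the other.

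**Figure D2:**
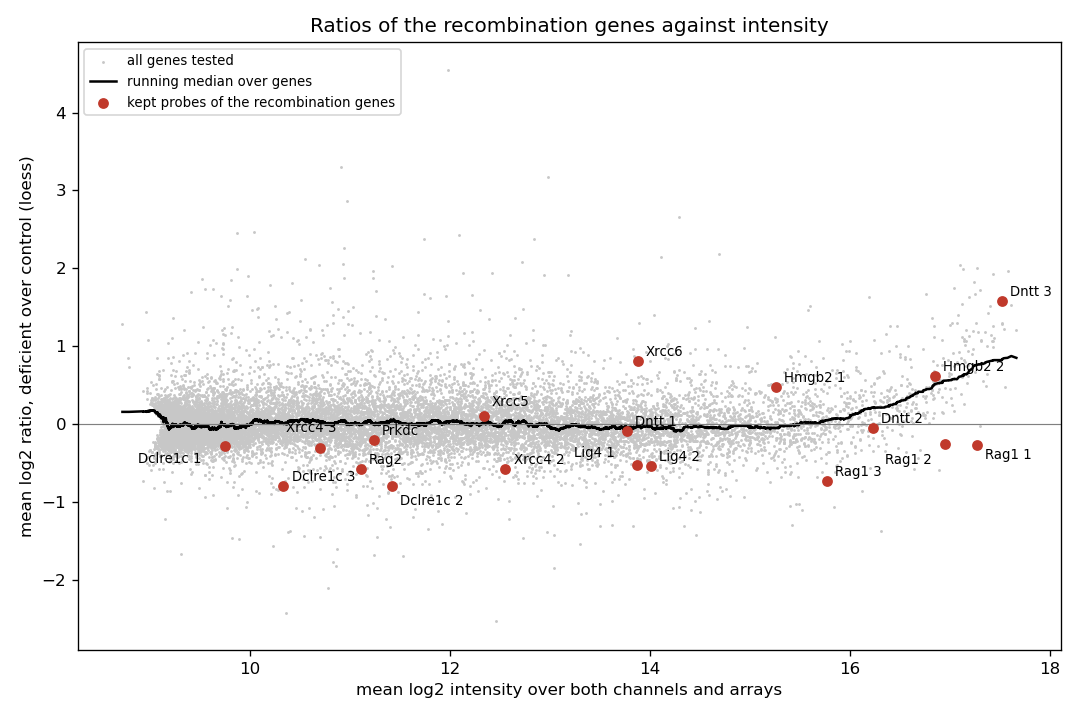
Mean loess log2 ratio of 14921 genes (grey) and of the 19 usable probes of the recombination genes (red) against mean log2 intensity, with a running median over genes in black. The median line climbs above log2 intensity of about 16, where Dntt probe 3 lies on the higher side of the line, Hmgb2 probe 2 close to it, and Rag1 probes 1 and 2 well under it.

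Rag2, the partner that binds modified histones and completes the recombinase, has 1 probe, spotted 10 times, at chr2:101433127-101433186 (mm8). Its processed signals were 497 and 425 in the deficient samples against 734 and 822 in the controls, so both deficient values lay below both control values. This is 59.2% of control, at 67.6% on replicate 1 and 51.8% on replicate 2. The loess log2 ratios were -0.43 and -0.71, a mean of -0.57 ± 0.10 (SE, n = 2) with adjusted p = 0.0912 in limma. The 10 spots ranged from -0.51 to -0.35 on replicate 1 and from -0.78 to -0.63 on replicate 2. The spots of 1 array therefore differed less among themselves than the 2 arrays did from each other. Its mean log2 intensity of 11.11 is in the range where the median gene stood near 0, at 0.02, and 3.1% of 2229 genes of like intensity lay lower. Rag1 and Rag2 thus had nearly the same processed mean, -0.74 and -0.76.

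The genes beside Rag1 and Rag2 did not share one value. Iftap, an intraflagellar transport gene next to Rag2 that the array lists as B230118H07Rik, had loess log2 ratios of -0.75 and -1.12, with a mean of -0.94 ± 0.12 (SE, n = 2) and adjusted p = 0.0800 in limma. That is further below 0 than the mean of Rag2. On the other side, Traf6, a signalling adaptor, had -0.23 and -0.04, and Prr5l, which binds mTOR complexes, had 0.25 and 0.14. Lrrc4c, beyond Iftap, was not well above background in either channel on both arrays. The difference between Rag2 and these neighbours was not tested.

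Dntt was the member with the highest ratio, but its probes did not give one answer. Its 3 probes lie on chromosome 19 (mm8, plus strand). The first spans 41094607-41096176, so its bases come from both sides of an intron, and gave processed signals of 4045 and 3903 in the deficient samples against 3624 and 4737 in the controls. The second, at 41112582-41112641, gave 20932 and 20154 against 22776 and 23918. The third, at 41112757-41112816, gave 101833 and 87490 against 45473 and 44308. Only the third was higher on both arrays, at 224% and 197% of control, while the first stood at 112% and 82.4% and the second at 91.9% and 84.3%. The last pair of these probes lies only 115 bases apart. Which transcript forms each detects was not tested, and their sequences are not used here.

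On the loess scale the third Dntt probe had log2 ratios of 1.71 and 1.45, a mean of 1.58 ± 0.10 (SE, n = 2) and adjusted p = 0.0651 in limma. The first probe had 0.11 and -0.29, and the second -0.01 and -0.09. The third probe was among the brightest on the array, with a mean log2 intensity of 17.52. The 69 genes of like intensity had a median of 1.07, and 85.5% of them lay below Dntt. Taking away the running median in place of loess left 1.09, and the processed signals gave 1.07 ± 0.12 (SE, n = 2) with adjusted p = 0.0534 in limma. The mean over all 3 probes was 0.48 with adjusted p = 0.0830 in limma. The value for Dntt thus rests on 1 probe. Of its neighbours, Blnk, a B cell adaptor, had -0.36 and 0.27 and Zfp518a -0.15 and 0.08, so both changed sign between arrays. Opalin and Tll2 on the other side were not well above background in either channel on both arrays.

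**Figure D3:**
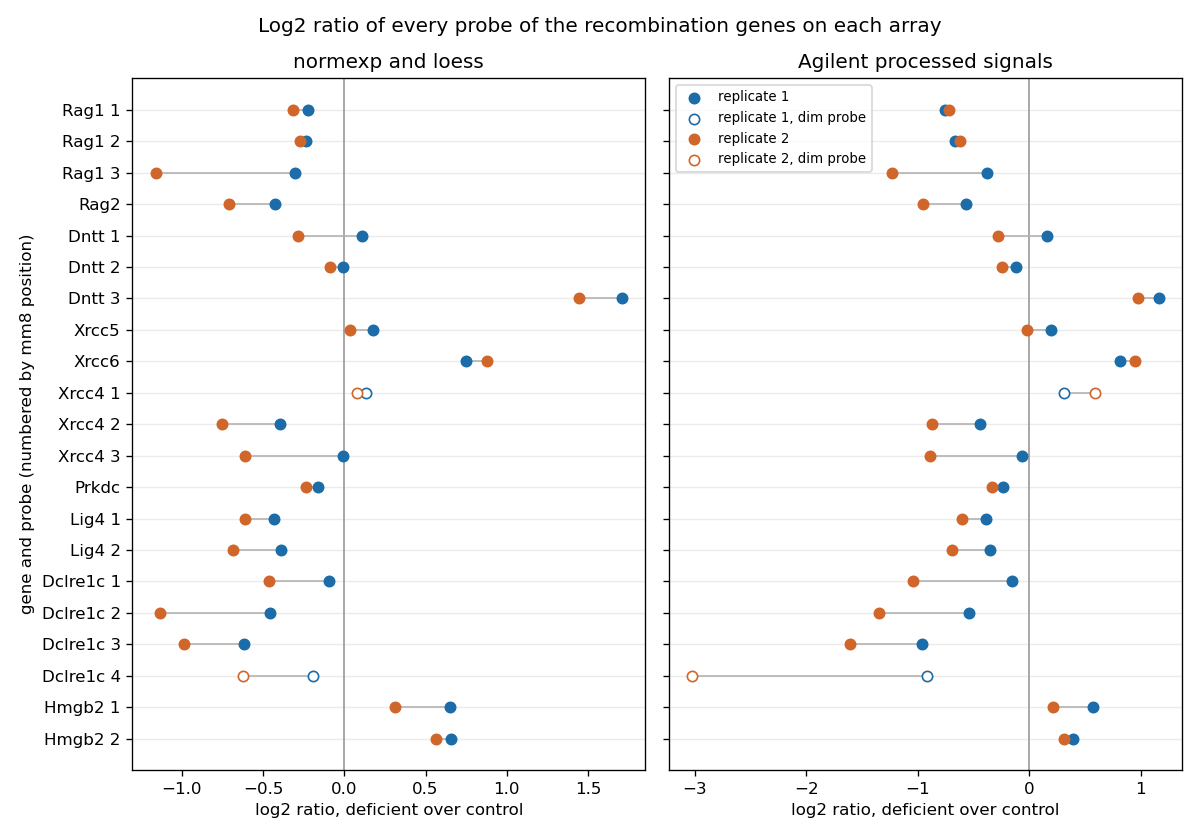
Log2 ratio of every probe on each array, after loess (left) and from the processed signals (right), with open circles for the 2 probes too dim to be used and a line joining the arrays. The third Dntt probe stands apart from the other 2, the probes of Rag1, Lig4 and Dclre1c lie to the left of 0 in both panels, and the 2 Hmgb2 probes to the right.

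The genes that hold and sense the broken ends went different ways. Xrcc6, the Ku70 subunit, has 1 probe between 81858480 and 81862953 on chromosome 15 (mm8, plus strand). Its processed signals were 6964 and 8443 in the deficient samples against 3948 and 4375 in the controls. Both deficient values lay above both control values, at 176% and 193% of control. The loess log2 ratios were 0.75 and 0.88, a mean of 0.81 ± 0.08 (SE, n = 2), with adjusted p = 0.0719 in limma. At this intensity the median gene stood at -0.05, and 98.7% of 1394 genes of like intensity lay below Xrcc6. The running median (0.87) and the processed signals (0.88) moved the value little.

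Xrcc5, the Ku80 subunit with which Ku70 works as a pair, showed no such difference. Its probe, between 72316648 and 72316954 on chromosome 1 (mm8, plus strand), had 1950 and 1353 in the deficient samples against 1700 and 1373 in the controls, so the groups overlapped. The loess log2 ratios were 0.18 and 0.03, a mean of 0.10 ± 0.08 (SE, n = 2) with adjusted p = 0.432 in limma. The difference between the 2 Ku genes was not tested. Prkdc, the kinase that joins Ku on the ends, has 1 probe, spotted 10 times, between 15752802 and 15755407 on chromosome 16 (mm8, plus strand). It gave 661 and 613 against 775 and 773, which is 85.2% and 79.3% of control. The loess ratios were -0.16 (9 spots, 1 left out as an outlier) and -0.23, a mean of -0.20 ± 0.07 (SE, n = 2) with adjusted p = 0.187 in limma. The spots ranged from -0.21 to -0.10 on replicate 1 and from -0.29 to -0.17 on replicate 2, all below 0. Of 2199 genes of like intensity, 20.1% lay lower still, so Prkdc stood well inside the spread of genes of its brightness.

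The genes that open and close the ends were lower at all usable probes on both arrays after loess and by processed signals. The Xrcc4 probe at 90475223-90475282 was hardly so on replicate 1, at -0.01 after loess, and stood at 0.08 there with median centring. Dclre1c, for the nuclease Artemis, has 4 probes on chromosome 2 (mm8, plus strand), and the one at 3370687-3370746 represents the gene. It gave processed signals of 813 and 591 in the deficient samples against 1181 and 1502 in the controls, or 68.8% and 39.3%. The probe at 3376542-3376601 gave 226 and 157 against 440 and 476, or 51.3% and 32.9%. The probe at 3346359-3346418 gave 139 and 104 against 155 and 215, or 89.9% and 48.7%. At all 3 the deficient samples lay below the controls, and by more on replicate 2. The representative probe had loess ratios of -0.46 and -1.14, a mean of -0.80 ± 0.19 (SE, n = 2) with adjusted p = 0.118 in limma, and 1.05% of 2191 genes of like intensity lay lower. The other 2 had loess means of -0.80 and -0.28. The fourth probe, at 3378158-3378217, did not stand well above background for the deficient RNA on either array. For the control RNA it did on 1 of 2, so it gives only an approximate bound. Each deficient array was given the lowest signal among probes well above background, or the probe's own if higher. On that footing the control was about 1.15-fold higher. The control signal of the array where it was dim entered as measured, so this is no strict lower bound.

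Lig4, for the ligase that seals the joint, has 2 probes on chromosome 8 (mm8, minus strand), and these agreed closely. At 9970262-9970321 the processed signals were 5351 and 3565 against 7008 and 5409, or 76.4% and 65.9% of control. At 9971468-9971527 they were 4566 and 3822 against 5811 and 6175, or 78.6% and 61.9%. Both probes were lower on both arrays, with loess means of -0.52 ± 0.08 and -0.54 ± 0.11 (SE, n = 2) when each probe was fitted on its own. For the gene, adjusted p was 0.0971 in limma, and 3.64% of 1318 genes of like intensity lay lower. Xrcc4, the ligase's scaffold partner, has 3 probes on chromosome 13 (mm8, minus strand). The probe at 90323438-90323497 gave 1464 and 1315 against 1984 and 2411, or 73.8% and 54.5%. The probe at 90475223-90475282 gave 345 and 307 against 361 and 569, or 95.5% and 53.9%, so its difference rests mostly on replicate 2. The third, at 90249086-90249145, was not well above background in either channel on both arrays. The first of these had loess ratios of -0.40 and -0.75, a mean of -0.57 ± 0.12 (SE, n = 2) with adjusted p = 0.10 in limma.

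Hmgb2, a DNA-bending protein that aids RAG cutting and is also abundant in dividing cells, has 2 probes on chromosome 8 (mm8, plus strand). At 60405271-60405330 the processed signals were 16398 and 17626 in the deficient samples against 11025 and 15181 in the controls, or 149% and 116%. At 60406335-60406394 they were 41865 and 35023 against 31880 and 28182, or 131% and 124%. Both probes were higher on both arrays and their deficient values lay above both control values. The second probe had loess ratios of 0.66 and 0.57, a mean of 0.61 ± 0.07 (SE, n = 2) with adjusted p = 0.0770 in limma. Its mean log2 intensity was 16.85, where 192 genes of like intensity had a median of 0.44. Against the running median its difference was only 0.095, and by processed signals it was 0.35. The first probe, at a log2 intensity of 15.26 where the median line lies near 0, had a loess mean of 0.48 and 0.52 against the running median.

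Genes of the cell cycle were higher beside Hmgb2. Of 25 genes of S phase, 24 were higher and 0 lower on both arrays, beside 36.4% higher and 38.5% lower among all genes tested. Their median was 0.45, and the highest were the helicase subunit Mcm6 (1.08) and the sliding clamp Pcna (0.76). Of 21 genes of mitosis, 15 were higher and 1 lower, with a median of 0.39, the highest being Cdc20 (0.82), which activates the anaphase complex, and the kinase gene Aurka (0.64), and the lowest Ube2c (-0.08). The summed processed signals of the S phase list were 283990 and 275563 in the deficient samples against 213238 and 204294 in the controls, and those of the mitosis list 191940 and 192821 against 154486 and 139848. None of these genes passed limma's test after loess. With the separate-channel fit 8 S phase and 6 mitosis genes were called higher and 0 lower. Of all genes, that fit called 4.74% higher and 3.81% lower. Median centring called 15 and 8 higher and 0 lower, where it called 5.88% of all genes higher and 0.704% lower. That scaling leaves the rise of bright genes in place. The part of dividing cells in the Hmgb2 value was not tested.

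**Figure D4:**
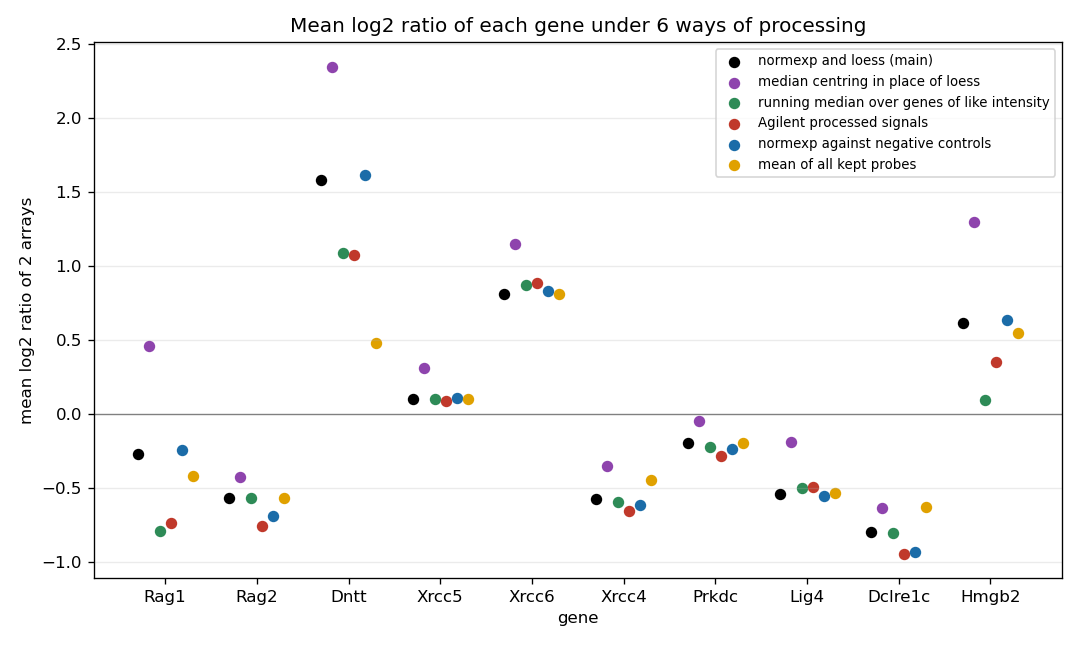
Mean log2 ratio of each gene over 2 arrays under 6 ways of processing, with 1 point per way. Rag2, Xrcc4, Lig4 and Dclre1c stay below 0 and Xrcc6 above 0 under all 6, while Rag1 runs from -0.79 to 0.46, Dntt from 0.48 to 2.35 and Hmgb2 from 0.095 to 1.29.

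Of 24 other genes of end joining and the break response that were tested, 12 were higher and 4 lower on both arrays, with a median of 0.08, beside 36.4% higher and 38.5% lower among all genes tested. The highest was H2ax, the histone phosphorylated around breaks, with loess ratios of 0.71 and 1.17 and a mean of 0.94 ± 0.14 (SE, n = 2, adjusted p = 0.0844 in limma). Next came Nbn, of the MRN end-binding complex, with 0.40, and the lowest were Cyren, a Ku-binding peptide gene, with -0.18 and Aptx, which repairs blocked ends, with -0.17. Of 18 genes of homologous recombination, which uses the sister chromatid after replication, 17 were higher and 1 lower, with a median of 0.28. Brca2 had 0.53 and Brip1 0.45, while Rad52 had -0.22. The other usable probe of each was nearer 0, at 0.12 for Brca2, 0.22 for Brip1 and -0.10 for Rad52. None of these genes passed limma's test after loess, and the lists were not tested against the members.

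Of 11 transcription factors known to act on the Rag or Dntt genes, 3 were higher and 2 lower on both arrays, beside 36.4% higher and 38.5% lower among all genes tested. Their median was -0.10 on replicate 1 and 0.41 on replicate 2, or 0.16 for the means after loess and -0.00 for the processed signals. Gata3, which acts throughout T cell development, had 0.60 and 0.70, and Foxo1, known to act on Rag genes in B cells, had 0.24 and 0.65. Tcf3, which encodes some of the E proteins that read E boxes, had -0.64 and -0.32. Myb, known to act on the Rag genes, had -0.27 and -0.59. Probes of 1 gene differed here too, with 3 further Myb probes between -0.21 and 0.06 and a further Tcf3 probe at -0.15. None passed limma's test after loess, with adjusted p from 0.0756 (Gata3) to 0.145 (Foxo1) among these 4.

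**Figure D5:**
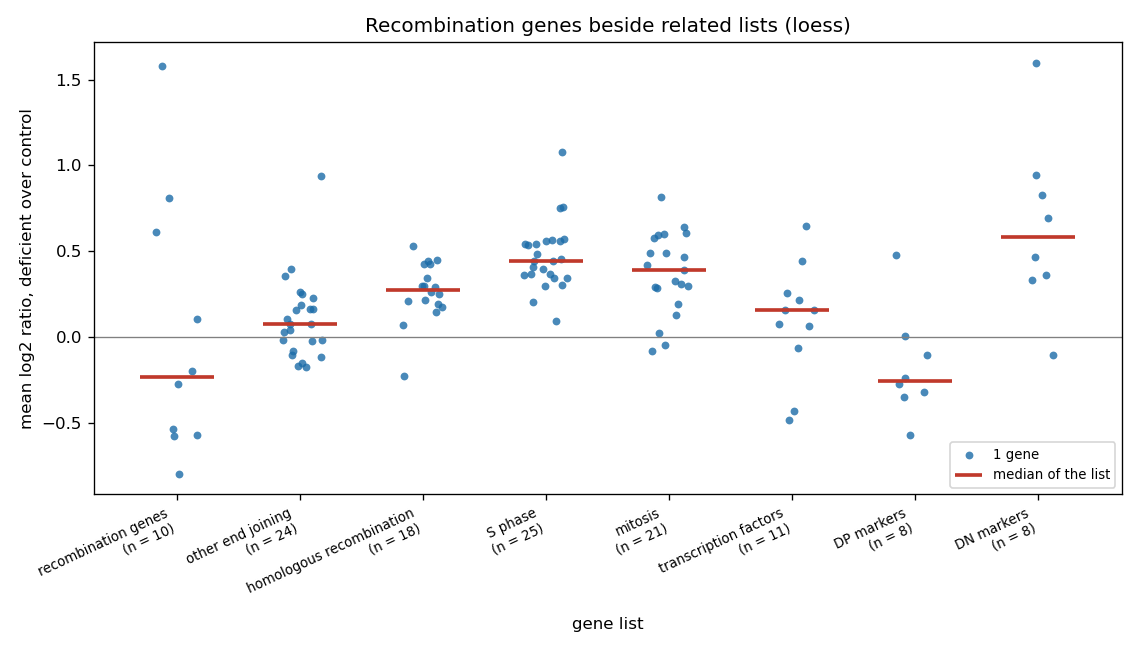
Mean loess log2 ratio of each gene in 8 lists, with the median of each list as a red bar. The recombination genes are spread from -0.80 to 1.58, while S phase, mitosis and homologous recombination genes lie mostly above 0.

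Markers of cell stages and of other cells can be read against the same shares of all genes, 36.4% higher and 38.5% lower. Of the 8 DP markers, 2 were higher and 6 lower on both arrays, with a median of -0.26 after loess, which became 0.23 with median centring. Of them, Cd4 had -0.35, Cd8a 0.01 and Cd8b1 0.48, where the processed signals gave -0.51, -0.34 and 0.07. Cd8a and Cd8b1 had mean log2 intensities of 16.80 and 17.55, in the bright range where loess left the median gene above 0. Further usable probes had loess means of -0.40 for Cd4 and 0.06 for Cd8b1, and 2 of Cd8a ran from -0.23 to 0.07. Of 8 markers of DN (double negative) thymocytes and progenitors, 7 were higher and 0 lower, with a median of 0.58, led by Il7r (1.60) and Cd44 (0.94). Their summed processed signals were 11051 and 9196 in the deficient samples against 7340 and 5055 in the controls, and Hes1 was not well above background in the controls. For macrophages and dendritic cells, 5 of 6 tested markers were higher and 0 lower (sums 30141 and 31001 against 26841 and 10532), with Csf1r dim in the controls and Itgax and Flt3 dim in both groups. Lyz2 weighs most in these sums, with a mean log2 intensity of 15.93 where the next brightest tested marker had 11.87. Its loess ratios were 0.31 and 1.75, and its other usable probe had a mean of 0.34. For NK cells, 4 of 6 were higher and 1 lower (sums 9629 and 9895 against 4479 and 4162), with Ncr1 dim in both groups. For stroma and endothelium, 5 of 7 were higher and 2 lower (sums 5663 and 3400 against 3064 and 1023), with Col1a2 dim in the controls and Cdh5 in both groups. For B cells, which also use this machinery, 0 of 6 were higher and 3 lower (sums 4874 and 3542 against 7397 and 4173), and the defining markers Cd79a and Ebf1 were dim in both groups. Genes of red cells went opposite ways on the arrays, with -0.42 and 2.26 for Hba-a1 (haemoglobin alpha), -0.38 and 1.92 for Alas2 (haem synthesis) and -0.53 and 0.87 for Slc4a1 (the red cell anion exchanger). The part of any of these cells in the members' values was not tested.

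Genes most like Rag1, Rag2 and Dntt were sought by distance between pairs of loess ratios, among genes within 1 log2 unit of intensity. The measure covers 2 arrays only. For Rag1 the nearest of 239 genes were Rgcc (distance 0.096), Trp53inp1 (0.107) and Dynll1 (0.155), and only 1 gene lay within 0.1. For Rag2 the nearest of 4510 were Gbp4 (0.011), Samsn1 (0.025) and Akr1c19 (0.029), and 19 lay within 0.1. For the third Dntt probe the nearest of 169 were H2ac1 (0.088), Rpl37a (0.139) and RP23-480B19.10 (0.198), with 1 within 0.1.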

How the data were processed

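Gene expression was measured on 2 Agilent 2-colour arrays, and samples were grouped by the genotype of their channel. Scans were quantified by the authors in Agilent Feature Extraction 9.5.3.1, per the submitters' processing notes. Mean and background signals are deposited as uncorrected intensity values, and processed signals as background-corrected, dye-normalised intensity. The value table deposited for the series is a log10 ratio of processed signals, Cy5 over Cy3. Mean signals were corrected by normexp (offset 50) and by loess within arrays, with limma 3.58.1 (R 4.3.3, statmod 1.5.0), leaving out controls and 108 and 116 outlier spots. Spots of a probe were averaged, and 21539 probes well above background in one channel on both arrays were kept. The brightest kept probe stood for its gene (14921 genes). Genes were named by accession (24496 probes), symbol (6234) or synonym (2386), and 8058 probes kept the file's name. The mean of 2 arrays was tested against 0 by limma's moderated test with Benjamini-Hochberg adjustment at 0.05 (residual df 1, prior df 2.51), tested on simulated data. Each SE is limma's moderated SE from this fit. Genes of like intensity lie within 0.5 log2 units either side. Probe positions are mm8, as in the files. Alternatives changed the background, normalisation, filter, probe rule and model. The members, a list of names, and the lists and tests were chosen with earlier results of these data known. Named genes are all members and their probes, Bcl11b, in each list the 2 highest and 2 lowest with the same sign on both arrays, the nearest coding neighbours, and the 3 genes most like Rag1, Rag2 and Dntt. Marker lists of other cells are given by counts, sums and dim markers, and the red cell genes and Lyz2 by their values. One erythroid marker and 1 DP marker are not reported by name here.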

Additional observations from a re-analysis of the deposited data

How the results depend on the processing

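Direction held for 9 of 10 members over 12 settings, which are not 12 separate checks. For Dntt it rests on 1 of 3 probes, and the other 2 had loess means of -0.09 and -0.05. Settings that changed only the filter, the fit of single probes or the model returned the main ratio of every member. The deposited values repeat the processed signals. Rag1 reversed with median centring in place of loess, to 0.46. Calls depended on the setting. After loess, limma called 0 members and 0 genes in all, although 4361 genes had an unadjusted p under 0.05. Of the members, 3 were called higher (Dntt, Xrcc6, Hmgb2) with median centring, 3 with normexp against negative controls and 3 with limma's separate-channel fit, and 2 were called lower (Rag2, Lig4) with the separate-channel fit. Over all genes these settings called 982 (5.88% higher and 0.704% lower), 1085 (4.14% and 3.14%) and 1277 (4.74% and 3.81%). The processed signals gave 132 calls and the deposited values of the series gave 124, with 0 members among them. The cause of these differences was not tested. Without replicate 1 or replicate 2 there is no test, and the values are those of the other array. The main test takes the ratio within each array, so it already pairs the samples of a replicate. The precision is limited by 2 arrays with 1 residual degree of freedom.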
